A study of Mus musculus with 10 samples.

Results

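RNA of the whole mouse embryo at embryonic day 5.5 was compared with RNA of 2 kinds of fragment cut from such embryos, over the genes carried on the Affymetrix array type MOE430B. All arrays of that type were taken, which gave 5 of the 10 arrays of the series. They were 1 whole-embryo array, 2 arrays of anterior distal fragments (Ad, replicates 3 and 4) and 2 arrays of posterior proximal fragments (Pp, replicates 3 and 4). The other 5 arrays, of type MOE430A, had the same layout and mostly other probe sets. The study's title gives its aim as finding genes active in the anterior visceral endoderm, and the whole-embryo RNA was hybridised for normalization.

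All embryos came from matings of B6SJLF1 with CerlP-GFP mice, carried a fluorescent label in the anterior visceral endoderm and had received no treatment. The Ad fragments held the fluorescent endoderm and the epiblast beneath it. The Pp fragments held proximal visceral endoderm and epiblast from the opposite side, and ended at the border with the extraembryonic region. The labels do not say how many embryos went into a sample, whether replicates were separate embryos, or how the whole embryo was freed from the uterus. The p-values therefore measure only the spread between these arrays, which may be technical. The whole embryo had 1 array, which was assumed to vary like the fragments.

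At this stage the mouse embryo is a cup of epiblast, the pluripotent tissue that forms the body, wrapped in visceral endoderm. The cup is capped by extraembryonic ectoderm and the ectoplacental cone, both of trophoblast origin, and parietal endoderm lines the surrounding sac. The embryo lies in the decidua, the uterine stroma that is transformed under progesterone at implantation. Decidual stroma is known for the steroid receptors Pgr and Esr1, for the transcription factor Hand2, which progesterone induces there, and for the tryptophan-degrading enzyme Tdo2. Utf1 encodes a chromatin-bound factor of pluripotent cells.

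Genes known from uterine stroma were among those with the largest differences. Signal of Esr1, Tdo2, Hand2 and Pgr was 10.7-fold to 34.6-fold higher in the whole embryo than in the fragments, and these 4 genes passed the test. Utf1 went the other way and was 3.38-fold higher in the fragments. Esr1, Hand2, Pgr and Utf1 are the markers chosen for this comparison, and the other kept probe set of each did not pass. On MOE430A Esr1 and Pgr did not pass, while Tdo2 and Utf1 did. Of the genes that passed, more were higher in the whole embryo than lower. By probe set this excess was nearly absent without Pp 4, in a fit whose spread came from the Ad pair alone. Signals are deposited array intensities in arbitrary units, and a difference is the log2 value of the whole embryo minus the mean of Ad and Pp, with a pseudocount of 10.5 added to each intensity. Folds are taken from that difference, so they understate the change of dim genes. A gene passed when its adjusted p from limma, corrected by Benjamini-Hochberg over all 13506 probe sets kept, was under 0.05. Fewer cells of a type and less RNA per cell cannot be told apart in such samples.

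The promoters of the 4 marker genes are shown because these genes were chosen as markers for this comparison. Each window runs from 250 bases before to 50 bases after an annotated start, 5′ to 3′ on the + strand, as given by RefSeq for GRCm38.p6. They are Utf1 at chr7:139943606-139943905, Hand2 at chr8:57320733-57321032, Pgr at chr9:8899583-8899882 and the first of 2 Esr1 windows at chr10:4611739-4612038. Capitals mark matches, on either strand, to the CCAAT box (CCAAT) or the TATA box (TATAAA).
Utf1: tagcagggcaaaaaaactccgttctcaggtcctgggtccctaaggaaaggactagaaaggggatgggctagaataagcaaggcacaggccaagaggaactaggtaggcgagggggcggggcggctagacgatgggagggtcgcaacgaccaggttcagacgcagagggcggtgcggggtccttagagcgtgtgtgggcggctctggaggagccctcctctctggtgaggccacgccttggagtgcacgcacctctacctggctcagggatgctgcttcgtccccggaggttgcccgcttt
Hand2: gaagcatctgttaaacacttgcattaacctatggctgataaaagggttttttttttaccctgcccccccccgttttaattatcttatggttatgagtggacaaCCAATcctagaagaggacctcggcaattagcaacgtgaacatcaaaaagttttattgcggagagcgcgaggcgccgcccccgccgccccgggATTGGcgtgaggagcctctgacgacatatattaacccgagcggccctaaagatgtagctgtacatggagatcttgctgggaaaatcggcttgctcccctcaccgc
Pgr: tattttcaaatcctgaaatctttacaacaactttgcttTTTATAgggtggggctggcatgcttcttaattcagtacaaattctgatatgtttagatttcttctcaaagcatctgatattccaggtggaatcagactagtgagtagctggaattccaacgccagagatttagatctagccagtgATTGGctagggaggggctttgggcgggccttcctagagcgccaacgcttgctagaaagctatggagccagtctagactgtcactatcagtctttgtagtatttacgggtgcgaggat
Esr1: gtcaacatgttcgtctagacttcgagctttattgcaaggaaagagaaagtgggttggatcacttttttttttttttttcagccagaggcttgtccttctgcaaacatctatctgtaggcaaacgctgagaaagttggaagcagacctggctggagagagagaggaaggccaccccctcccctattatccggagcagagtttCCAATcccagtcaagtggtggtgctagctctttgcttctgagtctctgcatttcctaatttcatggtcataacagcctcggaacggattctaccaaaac
Hand2 held CCAAT at 147 bases before the start on the + strand and at 55 bases before it on the other. Pgr held CCAAT at 67 and TATAAA at 212 bases before the start, both on the other strand, and Esr1 held CCAAT at 49 bases before its start. The Utf1 window held none of the motifs searched. An estrogen response element, searched as its palindrome with any 3 middle bases, or a progesterone receptor half-site (AGAACA) was in none of these 4 windows. Of all 32851 windows, 37.4% held CCAAT, 13.6% TATAAA, 19.0% AGAACA and 0.07% the estrogen response element. Among 208 windows of 152 genes higher in the whole embryo these shares were 38.5%, 8.65%, 9.62% and 0.0%. Among 38 windows of 27 genes lower there they were 28.9%, 15.8%, 26.3% and 0.0%. A match describes letters in a window and is not a binding site.

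The arrays were on like scales. The median intensity was 56.8 to 61.0 on the fragments and 57.4 on the whole embryo, and Spearman's rank correlation over probe sets was 0.959 to 0.969 between the whole embryo and a fragment, against 0.985 within Ad and 0.976 within Pp. For the Gapdh control probe sets the ratio of 3′ to 5′ signal, a sign of RNA length, was 1.19 to 1.34 across the 4 fragments against 1.49 in the whole embryo. For Actb it was 3.51 to 3.79 and 4.22. The whole embryo was thus outside the fragments in both ratios, and the part of RNA length in the results was not tested.

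More probe sets passed as higher in the whole embryo than as lower, while over all probe sets the median difference was −0.03. Of 13506 probe sets, 244 passed as higher (1.81%) and 55 as lower (0.407%), and 2216 had an unadjusted p under 0.05. Taken by gene, with the brightest probe set of each of 6921 genes, 179 passed as higher (2.59%) and 32 as lower (0.462%). Some of the 179, such as Pdgfrl and Afap1l2, had a fragment mean below the lowest signal kept, 37.2. Such genes were kept through the whole-embryo array. The median fold was 2.94 among the higher genes and 2.25 among the lower ones, and 53 of the higher genes differed at least 4-fold. In 210 of these 211 genes the whole embryo lay outside all 4 fragment arrays, where 54.5% of all genes tested did so (26% above and 28.5% below). The exception was Kcnj5, a potassium channel, with a signal of 141 and 133 in Ad, 22.5 and 17.2 in Pp and 17.9 in the whole embryo. It was near the Pp level, its adjusted p from limma was 0.0236, and this was 0.799 against Pp alone. The whole embryo lay at least 2-fold above every fragment array in 135 genes (1.95%) and at least 2-fold below in 14 (0.202%). By probe set these counts were 184 (1.36%) and 18 (0.133%). Against Ad alone 155 genes passed as higher in the whole embryo (2.24%) and 54 as lower (0.78%). Against Pp alone they were 159 (2.3%) and 19 (0.275%), and both comparisons share the whole-embryo array. Leaving out Ad 4 reduced the probe sets called from 244 to 99 higher and from 55 to 2 lower, and leaving out Ad 3 gave 104 and 5. Without Pp 4 the counts were 593 and 587, and without Pp 3 they were 417 and 250. With 1 array of a kind left out, the spread in the fit comes from the remaining pair of the other kind alone.

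**Figure D1:**
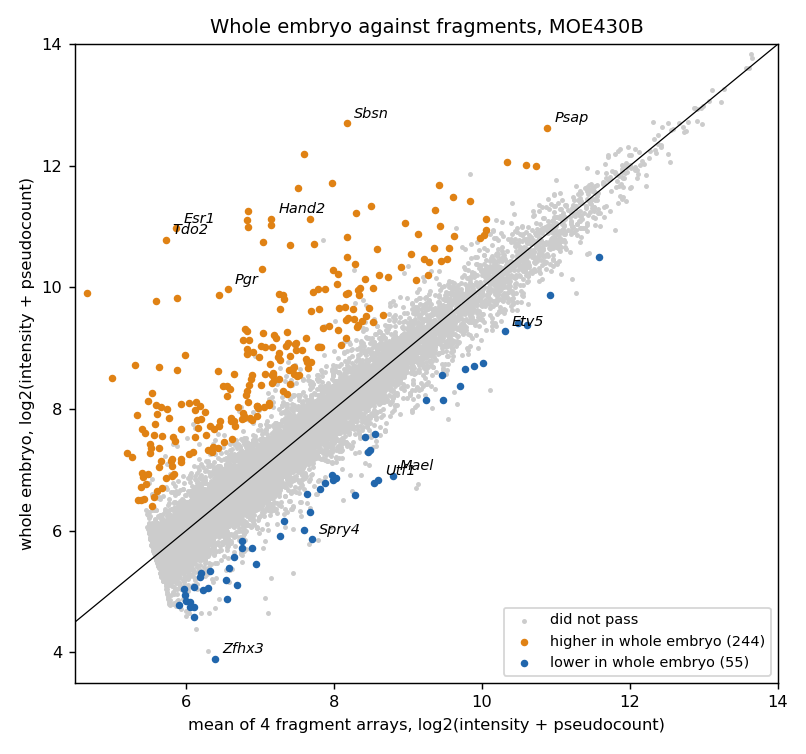
Mean log2(intensity + pseudocount) of the 4 fragment arrays (x axis) against the whole-embryo array (y axis), 1 point per kept probe set, with the line of equal values. The 244 probe sets that passed as higher in the whole embryo lie above the line over most of the range, and the 55 lower ones lie closer to it.

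Among the marker genes, Hand2 signal was 110 and 144 in Ad, 140 and 135 in Pp and 2223 in the whole embryo. The fragments were within a narrow band and the whole embryo far above it. The difference was 3.98 (SE 0.18), or 15.8-fold, with an adjusted p of 0.00107 from limma. Pgr, the progesterone receptor, had a signal of 80.3 and 78.2 in Ad, 101 and 78.4 in Pp and 991 in the whole embryo. Its fragments again lay close together, and the whole embryo was 10.7-fold higher (3.41, SE 0.19, adjusted p 0.00150 from limma). Esr1, an estrogen receptor, had a signal of 17.8 and 81.9 in Ad, 84.4 and 36.3 in Pp and 1999 in the whole embryo. The fragment values spread widely around the lowest signal kept, 37.2, and both kinds of fragment overlapped. The difference was 5.11 (SE 0.64), or 34.6-fold, with an adjusted p of 0.0129 from limma, and 0.0596 when no filter on dim probe sets was used.

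Utf1 was the marker with the opposite order. Its signal was 375 and 471 in Ad, 324 and 350 in Pp and 103 in the whole embryo. All 4 fragments lay above the whole embryo, by 3.38-fold (difference −1.76, SE 0.18, adjusted p 0.00588 from limma). Each of the 4 markers had another probe set on the array, and none of these passed: the differences were 0.81 for Esr1 (adjusted p 0.0743 from limma), 0.57 for Hand2 (0.194), 0.21 for Pgr (0.533) and −0.04 for Utf1 (0.932). In the whole embryo these other probe sets were at 70.7 for Esr1, 183 for Hand2, 72.5 for Pgr and 122 for Utf1. The call for a marker therefore rests on 1 of its 2 probe sets. Over all called genes, 62 had 75 other kept probe sets, of which 59 had the same sign, 17 passed with the same sign and 0 passed with the opposite sign.

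**Figure D2:**
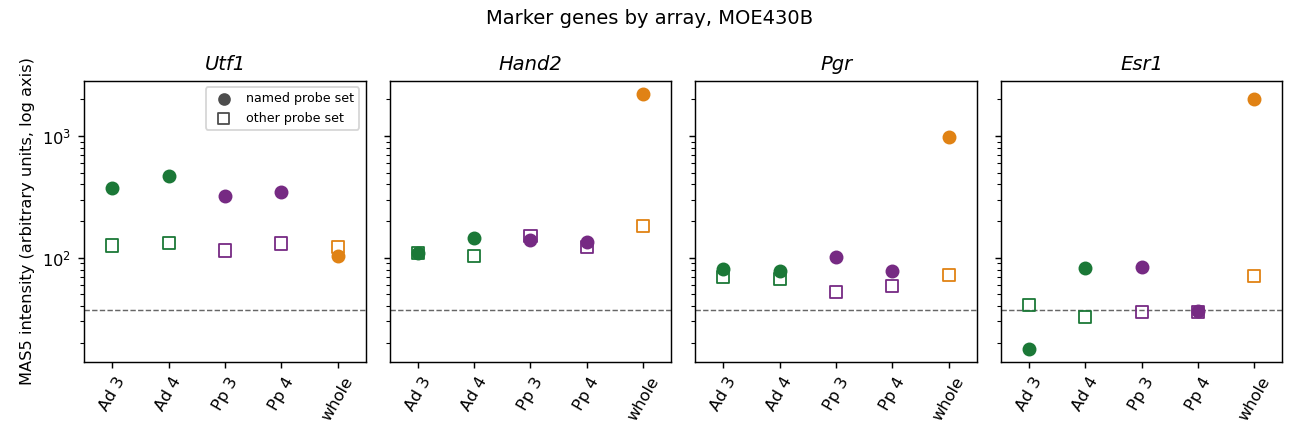
Intensity (log axis, arbitrary units) of Utf1, Hand2, Pgr and Esr1 on each of the 5 arrays. Filled circles are the probe set described, open squares the gene's other probe set, and the dashed line the signal of 37.2 used as filter. The circles of Hand2, Pgr and Esr1 stand far above the fragments in the whole embryo only, those of Utf1 lie below them, and the squares differ little.

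Of 25 genes listed for decidual stroma, 9 had a named probe set on the array and 5 were bright enough to be measured. All 5 rose in the whole embryo, beside 2.59% of all genes tested, with a median difference of 3.98 beside −0.01 over all genes. Apart from Hand2, Pgr and Esr1 they were Tdo2 and Emx2, a homeobox factor of the uterus. Hand2, Pgr and Esr1 are markers, and the list was written with earlier results of these data known. The count of 5 is therefore a description and gives no independent support. Tdo2 signal was 21.3 and 86.3 in Ad, 42.1 and 37.7 in Pp and 1751 in the whole embryo. The fragments were near the filter and the whole embryo was 33.5-fold higher (5.07, SE 0.52, adjusted p 0.00620 from limma). Emx2 had 84.3 and 85.2 in Ad, 89.5 and 86.4 in Pp and 309 in the whole embryo, a difference of 1.73 with an adjusted p of 0.00353 from limma. Summed over the 5 genes, the signal was 314 to 476 across the 4 fragments against 7273 in the whole embryo. The 4 other genes of the list stayed below the filter. Among them Wnt4, a signal that acts in decidualization, was at 21.7 to 27.0 across the 4 fragments against 120 in the whole embryo, and a probe set of Nr2f2, a stromal nuclear receptor, at 11.5 to 37.5 and 165. Hoxa10 and Angpt2 were not higher there, with 1.06 and 27.3. Markers of uterine epithelium, of red blood cells and of natural killer and T cells had no named probe set on this array.

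In the list of steroid receptors, cofactors and targets 2 genes passed. Of 9 members measured, Pgr and Esr1 rose (2.59% of all genes did), 0 fell and 7 did not pass, with a median difference of 0.12. Ncoa3, a receptor coactivator, differed by 0.47 (adjusted p 0.210 from limma), and Greb1, an estrogen target, by −0.71 (0.212). Of 9 transcription factors of mesenchyme, Hand2 and Meis2 rose, beside the same 2.59%, and 7 did not pass, with a median of 0.05. Pgr, Esr1 and Hand2 are markers and both lists were written with earlier results known, so these counts are a description. Meis2, a homeobox factor, was at 195 and 170 in Ad, 203 and 180 in Pp and 444 in the whole embryo (adjusted p 0.0233 from limma, and 0.0960 without Ad 3 or 0.138 without Ad 4). Tbx3, a T-box factor, was at 49.0 and 75.9 in Ad, 123 and 169 in Pp and 240 in the whole embryo (adjusted p 0.0627 from limma, and 0.0342 without Pp 3 or 0.0141 without Pp 4).

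Epiblast genes were lower in the whole embryo where they passed. Of 10 measured, Utf1 and Etv5 fell (0.462% of all genes fell), 0 rose and 8 did not pass, with a median difference of −0.74. Utf1 is a marker and the list was written with earlier results known, so this count is a description. Etv5, a transcription factor downstream of Fgf signalling, was at 1310 and 1373 in Ad, 1273 and 1081 in Pp and 612 in the whole embryo. It lay below all 4 fragments, with a difference of −1.01 (SE 0.17) and an adjusted p of 0.0416 from limma, which became 0.183 without Ad 3 and 0.208 without Ad 4. Gdf3, a Tgf-beta family ligand, was at 185 to 207 across the 4 fragments against 105 in the whole embryo (adjusted p 0.0557 from limma). Zscan10, a zinc finger factor of pluripotent cells, was at 2180 to 3103 and 1484 (0.0704). The whole embryo was below every fragment for both, but neither passed with all arrays. Without Pp 4 the adjusted p from limma was 0.0188 for Gdf3 and 0.0118 for Zscan10, and without Pp 3 it was 0.0340 and 0.0330. Summed epiblast signal was 16568 and 17893 in Ad, 14857 and 13847 in Pp, and 10311 in the whole embryo. Decidual stroma signal was higher in the same array, and its part in these epiblast values was not tested.

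Visceral endoderm genes differed less. Of 5 measured, 0 passed, all 5 differences were below 0 and the median was −0.27. Over all genes tested, 3573 of 6921 differences were below 0. Ttr, which carries thyroid hormone and vitamin A, was at 9204 and 8219 in Ad, 6714 and 8184 in Pp and 6610 in the whole embryo (adjusted p 0.485 from limma). Ctsh, a lysosomal protease, was at 4427 and 4073 in Ad, 3034 and 3828 in Pp and 2794 in the whole embryo (0.293). The whole embryo was lowest for both by a small margin.

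Few genes of the tissues that the fragments were cut to leave out were measured here. Of 4 extraembryonic ectoderm genes, 0 passed, where 2.59% of all genes tested passed as higher. All 4 differences were above 0, with a median of 0.75. The 2 ectoplacental cone genes measured also differed upwards and did not pass. Over all genes tested, 3348 of 6921 differences were above 0. The summed signal of the 4 extraembryonic ectoderm genes was 2224 and 2224 in Ad, 2449 and 4996 in Pp and 5847 in the whole embryo. Pp 4 thus stood near the whole embryo and apart from Pp 3. Ddah1, an enzyme that degrades methylated arginine, followed that order with 471 and 511 in Ad, 957 and 2836 in Pp and 3723 in the whole embryo. Its adjusted p from limma was 0.109 with all arrays and 0.000440 without Pp 4. Without Pp 3 it was 0.00191. With either Pp array left out the spread between them no longer enters the fit and only the Ad pair gives it, so the lower p reflects that design, here and for the following 2 genes. Ets2, a trophoblast transcription factor, was at 147 and 183 in Ad, 81.6 and 243 in Pp and 363 in the whole embryo (adjusted p 0.277 from limma, 0.0418 without Pp 3 and 0.00294 without Pp 4). Plet1, a surface protein of the trophoblast listed with the ectoplacental cone, was at 127 and 121 in Ad, 115 and 290 in Pp and 343 in the whole embryo (0.238, 0.0279 without Pp 3 and 0.00231 without Pp 4). In all 3 genes Pp 4 was the fragment closest to the whole embryo, and its part in the result beyond these values was not tested.

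Of 3 parietal endoderm genes, all 3 differences were above 0 and 1 passed as higher in the whole embryo, beside 2.59% of all genes tested. This was Fst, the activin antagonist follistatin, which decidua also makes, at 87.6 and 116 in Ad, 464 and 328 in Pp and 1675 in the whole embryo. Pp lay above Ad and the whole embryo above both, by 8.02-fold over the mean of Ad and Pp (SE 0.25 on the log2 scale, adjusted p 0.00296 from limma). With the 4 fragments taken as 1 group its adjusted p was 0.154. Of 3 endothelial genes, 1 leukocyte gene and 2 smooth muscle genes measured, 0 passed.

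Signalling and growth lists each held a few genes that passed, and their medians lay between −0.17 and 1.30. In the hypoxia list, Epas1 and Adm rose of 4 measured, beside 2.59% of all genes tested. Epas1, the oxygen-regulated factor HIF-2alpha, was at 318 and 470 in Ad, 156 and 143 in Pp and 3336 in the whole embryo, 13.4-fold higher (adjusted p 0.00150 from limma). Adm, the vasodilator peptide adrenomedullin, was at 191 to 258 across the 4 fragments against 994 in the whole embryo (4.31-fold, 0.00455). In the Wnt list, Fzd1 and Sfrp5 rose of 12 measured, beside the same 2.59%. Fzd1, a Wnt receptor, was at 276 to 324 across the 4 fragments against 1327 in the whole embryo (4.32-fold, 0.00195). The fragments were alike and the whole embryo stood clear of them. Sfrp1, a secreted Wnt inhibitor, did not pass (−0.88, adjusted p 0.0895 from limma), with 4859 and 3694 in Ad, 1820 and 1834 in Pp and 1504 in the whole embryo, and its adjusted p from limma was 0.0384 without Pp 4. Sfrp5, another secreted Wnt inhibitor, passed with 1009 and 872 in Ad, 589 and 582 in Pp and 1588 in the whole embryo (0.0268, but 0.103 without Ad 3 and 0.151 without Ad 4).

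In the Nodal, Bmp and Tgf-beta list, Fst and Bmpr2 rose of 10 measured, beside 2.59% of all genes tested. Bmpr2, a Bmp receptor, had another kept probe set that differed by −0.01 and did not pass. By its brightest probe set it was at 874 to 1196 across the 4 fragments against 1948 in the whole embryo (adjusted p 0.0458 from limma). Its call was lost under 8 alternatives, with an adjusted p of 0.0546 with quantile normalization, 0.0570 with no centring, 0.0624 with the fragments as 1 group and 0.0640 with a pseudocount of 1. It was 0.0889 against Ad alone, 0.113 with no filter, 0.208 without Ad 3 and 0.210 without Ad 4. Tgfbr3, the co-receptor betaglycan, was at 1751 and 1477 in Ad, 511 and 513 in Pp and 1664 in the whole embryo, within the Ad range, and did not pass (0.0598, but 0.0343 without Pp 3 and 0.0263 without Pp 4). Of 7 cell cycle genes Cdk6, a G1 kinase, rose (2.59% of all genes did). Its signal was 217 to 287 across the 4 fragments against 1056 in the whole embryo (4.09-fold, adjusted p 0.00195 from limma). The other kept probe set of Cdk6 differed by 0.41 and did not pass. Among 4 cell junction genes kept, Cdh11, a cadherin of mesenchyme, passed (0.0296, but 0.150 without Ad 3 and 0.159 without Ad 4). Its fragments were at 26.0 to 33.2, all below the filter, and the whole embryo at 79.9, so it was kept through the whole-embryo array and its call supports no statement about the list. Of 6 DNA and histone methylation genes 0 passed and all 6 differences were below 0, beside 3573 of all 6921 genes tested. Of 3 glycolysis genes, 2 collagen and stromal matrix genes, 1 ribosomal protein gene and 1 immediate early gene, 0 passed. The interferon, complement and antigen presentation list had no named probe set here.

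**Figure D3:**
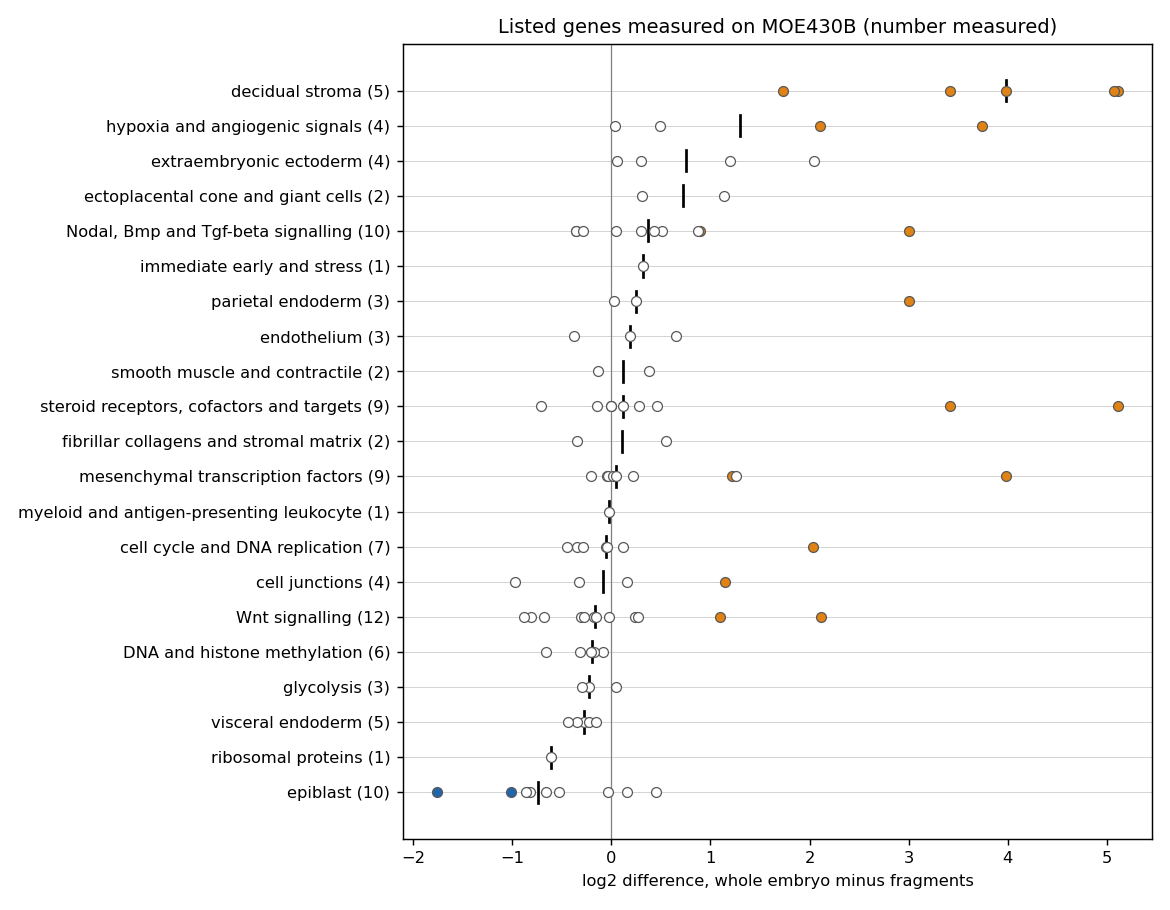
Log2 difference, whole embryo minus fragments, of each measured gene (circles) in the lists, with the number measured in brackets and the median as a bar. Filled circles passed, orange as higher and blue as lower in the whole embryo. The 5 decidual stroma genes all passed, while most other lists centre near 0 and epiblast lies at −0.74. The decidual stroma list includes the markers Hand2, Pgr and Esr1, and the epiblast list includes Utf1. The lists were written with earlier results known.

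Genes outside the lists made up most of the largest differences. Of the 12 genes with the largest difference upwards, Esr1, Tdo2, Hand2 and Epas1 were on a list. Sbsn, a secreted protein of epithelia, was the brightest of the other 8 in the whole embryo, with 196 and 717 in Ad, 207 and 203 in Pp and 6648 in the whole embryo. Ad 4 stood above the other fragments, and the whole embryo was 23.2-fold above their mean (4.53, adjusted p 0.0141 from limma, and 0.0624 with no filter). Rgs2, which limits G-protein signalling, was at 89.3 and 143 in Ad, 111 and 79.9 in Pp and 2422 in the whole embryo (4.43, 0.00163). The other kept probe set of Rgs2 differed by 0.51 and did not pass, while that of Sbsn differed by 4.61 and passed. Fosl2, a subunit of the AP-1 transcription factor, was at 70.6 and 123 in Ad, 85.4 and 145 in Pp and 2194 in the whole embryo (4.30, 0.00221). In all of these the 2 kinds of fragment overlapped.

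Lmna, which encodes nuclear lamins A and C, was at 70.0 to 131 across the 4 fragments against 2018 in the whole embryo (4.15, adjusted p 0.00150 from limma). Sh3pxd2a, a scaffold of podosomes, was at 130 to 212 and 3167, with the smallest adjusted p of the 12, 0.000503. Igfbp3, a binding protein of insulin-like growth factors, was at 89.4 to 165 and 2071 (3.88, 0.00195). In these 3 genes the whole embryo was at 2018 or more and no fragment was above 212. Gas7, a cytoskeletal adaptor, was dimmer, at 21.4 to 47.7 and 861 (4.18, 0.00190), and its other probe set differed by −0.47. Plekhg4 was at 108 to 143 and 1705 (3.71, 0.00107).

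**Figure D4:**
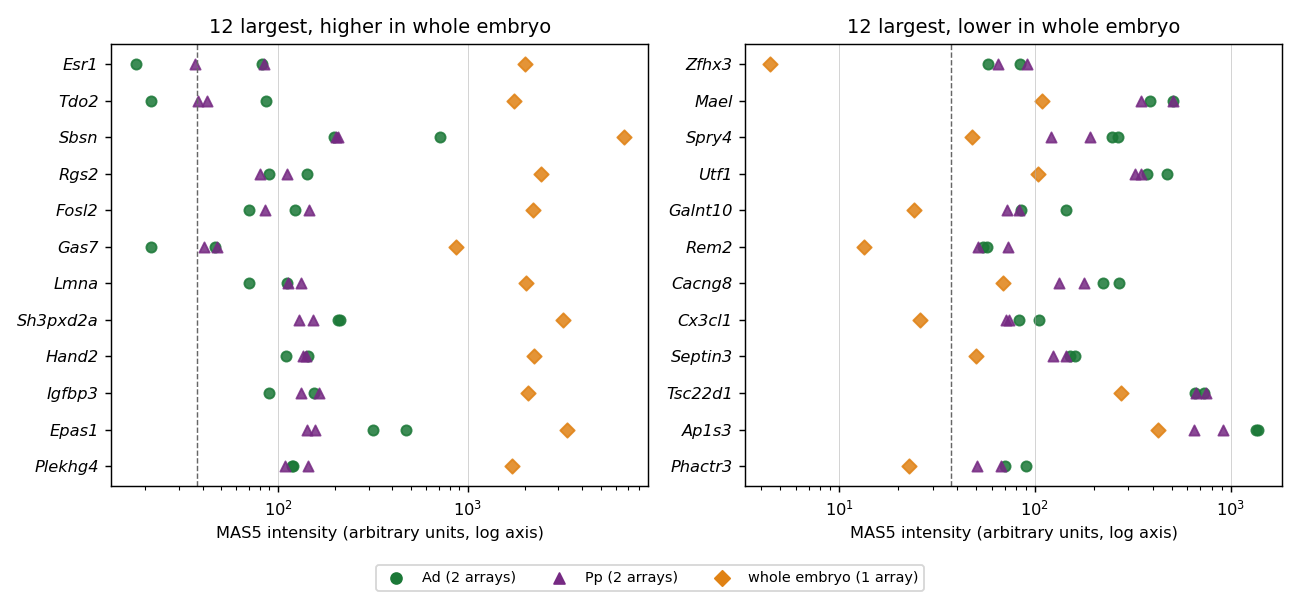
Intensity (log axis, arbitrary units) on each array of the 12 genes with the largest difference upwards and the 12 with the largest difference downwards among those that passed. In the upward genes the whole embryo lies far to the right of all 4 fragments, and in the downward genes to the left of them.

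The genes that fell in the whole embryo differed by less. Zfhx3, a zinc finger homeobox factor, was at 57.5 and 83.5 in Ad, 91.5 and 64.6 in Pp and 4.42 in the whole embryo, below the filter (adjusted p 0.00631 from limma). Mael, which silences transposons in the germ line, was at 505 and 388 in Ad, 507 and 350 in Pp and 109 in the whole embryo, 3.68-fold higher in the fragments (0.0201). Spry4, a feedback inhibitor of receptor tyrosine kinases, was at 246 and 266 in Ad, 121 and 191 in Pp and 47.4 in the whole embryo, 3.58-fold higher in the fragments (0.0126). Ad lay above Pp in Spry4 and not in the other 2. The other kept probe set of Spry4 differed by −0.62 and did not pass. Tsc22d1, a transcription regulator, was at 659 to 746 across the 4 fragments against 275 in the whole embryo (2.47-fold, 0.0119). Septin3, a cytoskeletal GTPase, was at 123 to 161 and 50.1 (2.54-fold, 0.0143).

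Cacng8, an accessory subunit of glutamate receptors, was at 133 to 267 across the 4 fragments against 68.4 in the whole embryo (adjusted p 0.0342 from limma). Ap1s3, a subunit of a clathrin adaptor, was at 648 to 1380 and 423 (0.0486), with an adjusted p of 0.173 against Pp alone. Galnt10, Rem2, Cx3cl1 and Phactr3 passed with whole-embryo signals of 13.4 to 26.0, below the filter. Of the genes with the largest falls, Zfhx3, Spry4, Galnt10, Rem2, Cx3cl1, Septin3 and Tsc22d1 did not pass on the other array type, while Utf1 did. Galnt10 adds sugars to proteins, Rem2 is a small GTPase, Cx3cl1 a chemokine and Phactr3 a phosphatase and actin regulator. The smallest of the 12 upward differences, 3.71, was larger in size than any downward one. Size and direction therefore cannot be told apart in how the calls of the 2 sets held. Meis2 and Sfrp5, upward genes with smaller differences, did not pass without Ad 3 or Ad 4, while Emx2 did. The downward calls held less well than the upward ones: without Ad 4, 2 of the 12 genes passed and their adjusted p reached 0.218, and without Ad 3 or with no filter 3 of the 12 passed. All 12 upward genes passed without any 1 fragment array.

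Of the called genes, 71 also had a kept probe set on MOE430A, which has its own arrays and its own scale. Of the 57 that were higher on MOE430B, 14 passed as higher on MOE430A, where 5.7% of 8708 genes did so. Of the 14 that were lower, 3 passed as lower, where 4.54% of genes did so. None passed in the opposite direction, and 54 did not pass, with a median difference of −0.02 on MOE430A. Rgs2 was at 318 to 495 across the 4 fragments against 6578 in the whole embryo there, and Igfbp3 at 210 to 372 and 4325. The fragment means of both lay below the filter signal of that array type, 464. These 2 genes were thus kept through the whole-embryo array, and only levels are given. Both are among the 14 counted above, and for them the count gives no support. Tdo2 passed with a difference of 1.11 (adjusted p 0.00112 from limma), from 739 to 806 in the fragments to 2098. Utf1 was at 5721 to 6194 across the 4 fragments against 4372 in the whole embryo, a difference of −0.51 (0.0203). Psap, a lysosomal activator of lipid breakdown, was read by the same probe set on both array types and differed by 1.75 on MOE430B and 1.55 on MOE430A.

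Esr1 and Pgr did not pass on MOE430A, with differences of −0.15 and −0.06. Esr1 was at 809 to 898 across the 4 fragments against 816 in the whole embryo there, and Pgr at 395 to 707 and 592, so the whole embryo lay among the fragments. The same held for Ddr2, a collagen receptor, with a difference of −0.02. Sh3pxd2a, Fosl2 and Lmna differed by 0.01, −0.04 and 0.21 and did not pass there. Of the genes lower on MOE430B, 11 did not pass on MOE430A and 3 passed as lower. Among those that did not pass, Zfhx3, Rem2 and Tsc22d1 differed upwards, by 0.13, 0.14 and 0.08. Cx3cl1, Galnt10, Spry4 and Septin3 differed by −0.03, −0.10, −0.15 and −0.18. Zfhx3 was at 1104 to 1374 across the 4 fragments against 1423 in the whole embryo on MOE430A. Whether the RNA on the 2 array types was the same is not in the labels, so the probe set and the RNA cannot be told apart in these pairs.

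**Figure D5:**
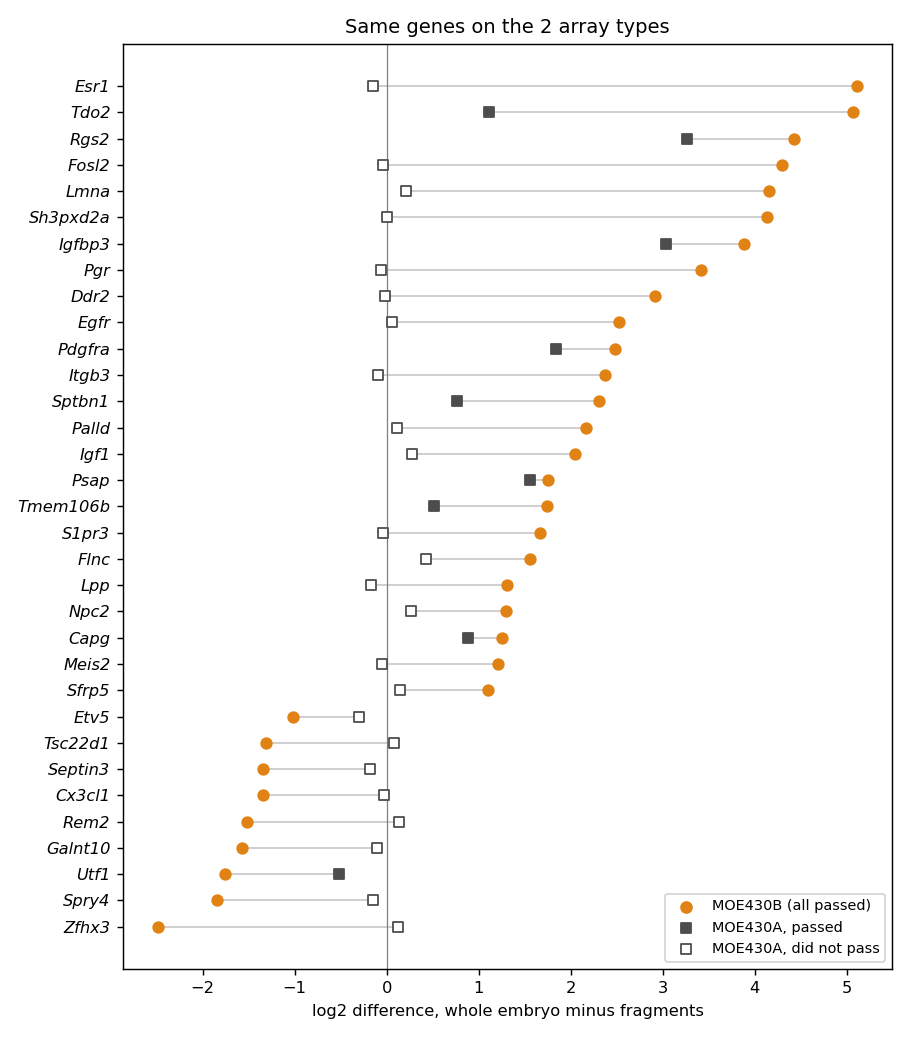
Log2 difference, whole embryo minus fragments, of 33 genes that passed on MOE430B (circles) and were also measured on MOE430A (squares, filled where they passed there). On MOE430A 9 of the 33 passed, each in the same direction, and the other 24 lie mostly near 0. The 9 include Rgs2 and Igfbp3, which were kept there through the whole-embryo array.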

How the data were processed

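The authors deposited 1 intensity per probe set, in linear, arbitrary units. Per the submitters' processing notes the authors used MAS5, and neither its version nor its scaling target or floor is given in the sources used here. Values of exactly 1 made up 5.69% to 6.13% of each MOE430B array. Arrays hold no counts, so the number of arrays limits the precision. The 64 control probe sets were left out. A pseudocount of 10.5, the 20th percentile of all values, was added to the deposited intensity before log2. Probe sets with a mean log2 value above the 40th percentile (a signal of 37.2) were kept, 13506 of 22511, and each array was centred on its median.

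Means of the 3 kinds of sample were fitted with limma 3.58.1 in R 4.3.3 (lmFit and eBayes, 2 residual degrees of freedom). The contrast was the whole embryo minus the mean of Ad and Pp, two-sided, adjusted by Benjamini-Hochberg at 0.05. The fit was tested on simulated data. MOE430A was fitted alone in the same way, with a pseudocount of 247.

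Names come from the platform annotation: 14674 probe sets had 1 gene symbol, 245 several and 7656 none, and 14499 matched RefSeq names (GRCm38.p6). Of the called probe sets, 29 had no single symbol. Each gene was taken by its brightest probe set. Named genes are the 4 markers with their other probe sets, the 12 largest differences each way among genes that passed, and up to 4 genes with the smallest adjusted p in each of 25 lists. Further genes were named after their values were seen: Kcnj5 and those in the closing observations. The members, lists and rules were chosen with earlier results of these data known. Where a group mean lay below the filter, levels are given without a fold. Alternatives covered centring, normalization, pseudocount, filter, variance trend, grouping of fragments, a replicate block and leaving out each fragment array.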

Additional observations from a re-analysis of the deposited data

How the results depend on the processing

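The probe sets higher in the whole embryo, 244, stayed within 1.5 times of that count under every alternative except leaving out 1 fragment array, where they ranged from 99 to 593. The probe sets lower there, 55, ranged from 2 to 587 without 1 fragment array, the highest without Pp 4. They numbered 100 with a pseudocount at the 40th percentile, 9 with no filter, 115 with an intensity trend in the variance, 36 with the fragments as 1 group, 84 against Ad alone and 28 against Pp alone. Probe sets at least 2-fold below every fragment, 18, became 37 with a pseudocount of 1 and ranged from 22 to 120 without 1 fragment array. By its definition this count is easier to reach with fewer fragment arrays, and a smaller pseudocount widens the gaps of dim probe sets. Any further cause was not tested. No called difference changed sign. Of the 299 probe sets called, 259 passed with quantile normalization, 131 with no filter, 107 without Ad 3 and 99 without Ad 4, and all 299 without Pp 3 or Pp 4. The share of calls that were higher was 81.6%, against 95.4% with no filter, 98.0% without Ad 4, 62.5% without Pp 3 and 50.3% without Pp 4. All 5 decidual stroma genes passed under every alternative except Esr1 with no filter. Utf1 passed under every alternative.

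Replicate numbers are shared by Ad and Pp. The deviations of Ad 3 and Pp 3 from their group means had a correlation of −0.04 over 13506 probe sets, so the numbers were not taken to pair the samples. With the replicate block, 102 probe sets passed as lower, and all 55 named genes that had passed still did.

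The whole embryo has 1 array, so its own spread is unknown. Probe sets near the filter carry signal close to background, and there the size of a difference depends on the pseudocount.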

Other observations

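Other genes that passed as higher in the whole embryo were grouped after their values had been seen, so the groups are a description and were not tested. They are named for what each gene does, and nothing is drawn from them about other genes of the same kind. Igf1, an insulin-like growth factor, was at 98.8 to 121 across the 4 fragments against 481 in the whole embryo, 4.13-fold higher with an adjusted p of 0.00340 from limma. Pdgfra, a receptor of platelet-derived growth factor, was at 32.9 to 41.2 and 257. Ddr2 was at 49.4 to 55.1 and 463, Egfr, the epidermal growth factor receptor, at 70.8 to 130 and 626, and Ednrb, an endothelin receptor, at 27.7 to 72.0 and 403. S1pr3, a receptor for a lipid signal, was at 56.5 to 116 and 286, with an adjusted p of 0.0702 without Ad 3 and 0.0971 without Ad 4 from limma. In all 6 genes the whole embryo lay above all 4 fragments.

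Some genes that passed act in the actin cytoskeleton and in cell adhesion. Palld, an actin-bundling protein, was at 416 and 356 in Ad, 180 and 159 in Pp and 1183 in the whole embryo, and its adjusted p from limma went from 0.00296 to 0.0756 with the fragments as 1 group. Itgb3, an integrin subunit, was at 68.6 to 152 across the 4 fragments against 555 in the whole embryo, and Sorbs2, an adhesion adaptor, at 128 to 167 and 788. Flnc, an actin crosslinker, was at 161 to 208 and 566, Lpp, a focal adhesion protein, at 565 to 722 and 1597, and Tns3, a tensin, at 1425 to 1854 and 4076. Other kept probe sets differed by −0.23 and 0.73 for Lpp, −0.06 for Tns3, and 0.46 and 0.07 for Sorbs2, and did not pass. That of Palld differed by 1.21 and passed. Flnc, Lpp and Tns3 did not pass without Ad 3 (adjusted p 0.0513 to 0.0693 from limma) or without Ad 4 (0.0681 to 0.0950). Among genes of lysosomal proteins, Psap was at 1651 to 2044 across the 4 fragments against 6315 in the whole embryo, Npc2, which carries cholesterol, at 117 to 172 and 347, and Ctso, a protease, at 159 to 181 and 493. The other kept probe set of Ctso differed by −0.05 and did not pass. Ctsh, another lysosomal protease, was at 3034 to 4427 and 2794 and did not pass. Npc2 and Ctso did not pass without Ad 3 (adjusted p 0.0911 and 0.0546 from limma) or without Ad 4 (0.0681 and 0.0553).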
